A study of Mus musculus with 12 samples.

Results

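Tubulin genes encode the alpha and beta subunits that pair into dimers and polymerise into microtubules, the hollow filaments that carry vesicles, position organelles and form the mitotic spindle. Livers of Fra1hep and Fra2hep mice were examined for 10 of these genes, chosen by symbol from a deposited count table of 55421 rows: Tubb6, Tubb2a, Tubb2b, Tubb4b and Tubb5 for beta-tubulin, and Tuba1a, Tuba1b, Tuba1c, Tuba4a and Tuba8 for alpha-tubulin. All 10 were in the table. Of these, 9 passed the filter on low counts and were tested among 14076 genes, and Tubb2b did not pass. Tubb6 was the only member that passed the test: in Fra1 mutants it was 4.41-fold higher than in their controls. In Fra2 mutants it was 2.74-fold higher, with all 3 mutants above all 3 controls, and did not pass the test. None of the other 8 tested members passed it in either strain. In simulated counts, with changed genes drawn at random from all tested genes, the test recovered 8.16% (Fra1) and 12.2% (Fra2) of 1.5-fold changes. It recovered 42% and 56% of 2-fold changes, and 74.7% and 80.8% of 4-fold changes. These rates are averages over genes of all levels, not rates for the tubulin members. Not passing therefore does not show that a member was unchanged.

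RNA was sequenced from livers of adult male C57BL/6 mice in 4 groups of 3: Fra1hep mutants, Fra1hep littermate controls, Fra2hep mutants and Fra2hep littermate controls. In the mutants a transgene was switched on by taking doxycycline away at 3 weeks of age. The controls shared cages with the mutants and received the same doxycycline regime. Livers were taken 2 months after induction according to the titles, but the treatment label of the Fra2 mutants reads 9 months, so age and genotype cannot be told apart in that comparison if the label is right. Fra-1 (Fosl1) and Fra-2 (Fosl2) are Fos-family proteins that bind DNA as AP-1 dimers with Jun proteins. Which promoter drives the transgenes, and in which cells, is a point not given in the sources used here.

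In hepatocytes microtubules run toward the bile canaliculus and carry secreted proteins and membrane transporters. Vertebrates make each subunit from several genes that differ mostly in the tail of the protein and in the tissues that use them. Tubulin mRNAs are also controlled by their product: surplus dimers trigger decay of the mRNAs while they are being translated, after TTC5 has recognised the newly made start of the protein on the ribosome. That start is encoded by the first codons of every alpha- and beta-tubulin gene.

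Coding starts of beta genes are shown because they display how alike the copies are. How far likeness limits the assignment of reads is described by the shared stretches in the next paragraph. Each line gives the first 60 coding bases from GENCODE M21 transcripts on GRCm38, 5′ to 3′, with capitals where a gene differs from Tubb5.
Tubb5: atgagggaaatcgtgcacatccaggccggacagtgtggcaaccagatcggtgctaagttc
Tubb2a: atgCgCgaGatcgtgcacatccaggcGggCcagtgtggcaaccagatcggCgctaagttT
Tubb2b: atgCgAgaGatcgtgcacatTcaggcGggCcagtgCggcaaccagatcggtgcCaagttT
Tubb4b: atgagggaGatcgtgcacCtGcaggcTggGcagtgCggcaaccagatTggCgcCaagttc
Tubb2a differed from Tubb5 at 7 of these 60 bases, and Tubb2b and Tubb4b at 9 each. Over the whole coding sequence, Tuba1a and Tuba1b were 98.3% identical, Tuba1b and Tuba1c 97.9%, and Tubb2a and Tubb2b 96.5%. Tubb6 was 80.2% to 83.6% identical to the other beta members.

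Reads that fit more than 1 gene touch the members unequally. None of the 50-base stretches of Tubb6 exons occurred in another annotated gene, and the shares were 0.0892% for Tubb5, 0.807% for Tuba4a and 0.181% for Tuba8. In Tuba1a, Tuba1b and Tuba1c, by contrast, 72.9%, 66.7% and 52.7% of stretches occurred elsewhere. The shares were 49.6% for Tubb2a, 36.9% for Tubb2b and 37.8% for Tubb4b. Levels and changes of these 6 genes are therefore uncertain, since how such reads were counted is a point not given in the sources used here. Of the 26 pseudogenes, overlapping genes and other non-member copies that were looked up, 24 had fewer than 50 counts in all 12 libraries together. Stk16, which overlaps 37.3% of Tuba4a exon bases on the opposite strand, had 1243 to 1804 counts per library. Without a stated strand setting, reads of Stk16 and Tuba4a cannot be told apart there.

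**Figure D1:**
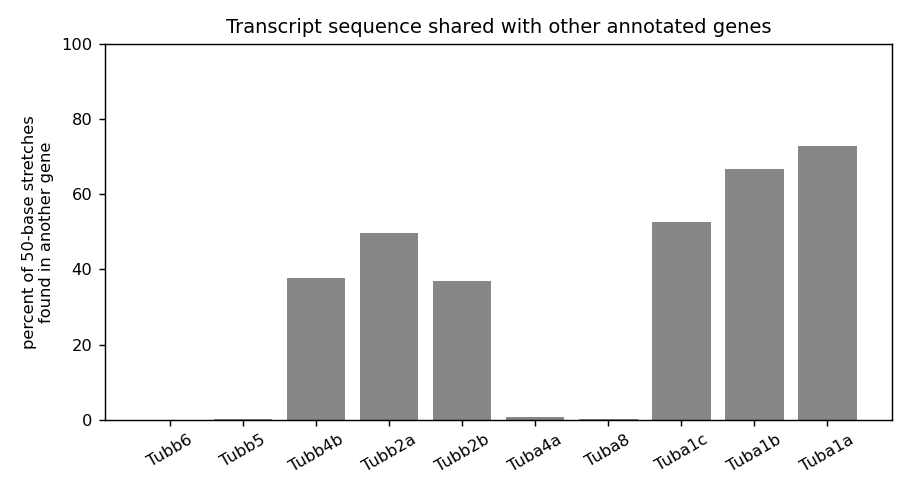
Percent of the 50-base stretches of each gene's exons (y axis) that occur in another annotated gene, for each of the 10 tubulin genes (x axis; 1 bar per gene). The bar of Tubb6 is at 0, and those of the 3 Tuba1 genes reach 52.7% to 72.9%.

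Library totals ran from 16834041 to 20464807 counts. The transgenes matched their labels: Fosl1 had 172, 193 and 252 counts in Fra1 mutants, against 0, 0 and 1 in their controls, and Fosl2 had 6821, 7718 and 8101 counts in Fra2 mutants, against 221, 861 and 297 in theirs. Fra2 control 2 had the high Fosl2 count of 861, and Fra2 control 1 had 11 counts of Fosl1, so members of that strain are also given without both. All 6 hepatocyte markers were present in every group, and none of them passed the test in either strain. Their summed level was 52138 to 67218 CPM (counts scaled to the size of the library) in Fra2 mutants, against 99242 to 122618 CPM in their controls, and the same sum was 49632 to 103428 CPM in Fra1 mutants, against 80243 to 116500 CPM in theirs. In bulk tissue, fewer cells of a type and less RNA per cell cannot be told apart.

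Tubb6, at chromosome 18, 67390717 to 67402749 on the plus strand, encodes the divergent class V beta-tubulin, whose overproduction is known to disrupt microtubules in cultured cells. It had 302, 424 and 221 counts in Fra1 mutants, against 34, 94 and 82 in Fra1 controls. On the CPM scale, with library sizes scaled by TMM factors, these were 16.5, 22.3 and 11.2 in Fra1 mutants, against 2.22, 4.62 and 4.41 in Fra1 controls. The lowest mutant was above the highest control, and Fra1 control 1 was the lowest library of all. The log2 fold change was 2.14 ± 0.33 (SE, n = 3 each; adjusted p = 0.00403, edgeR quasi-likelihood test). Tubb6 passed the test whichever of the 12 libraries was left out, with log2 fold changes of 1.87 to 2.35.

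In Fra2 mutants Tubb6 had 177, 188 and 336 counts, against 97, 71 and 84 in Fra2 controls. In CPM these were 10.3, 10.3 and 17.4 in Fra2 mutants, against 5.36, 3.96 and 4.53 in Fra2 controls. Fra2 mutants 1 and 2 were nearly equal and mutant 3 was higher, and the groups did not overlap. The log2 fold change was 1.46 ± 0.33 (SE, n = 3 each; adjusted p = 0.0655, edgeR quasi-likelihood test). Its unadjusted p by that test was 0.000911. DESeq2 put its adjusted p at 0.00169 and limma-voom at 0.110. By edgeR it was under the threshold without Fra1 control 1 (0.0474) or without Fra1 mutant 2 (0.0496), libraries outside this comparison. Tubb6 did not pass by edgeR when any single Fra2 library was left out. The adjusted p then ran from 0.0959 without Fra2 mutant 1 to 0.237 without Fra2 mutant 3, where the log2 fold change was 1.16. With Fra2 controls 1 and 2 both left out the log2 fold change was 1.48 and the adjusted p 0.517.

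The effects of the transgenes on Tubb6 were not shown to differ. The Fra2 effect minus the Fra1 effect was -0.69 ± 0.46 on the log2 scale (adjusted p = 0.876, edgeR quasi-likelihood test). Between the control groups the log2 difference, Fra2 minus Fra1, was 0.29 ± 0.34 (adjusted p = 0.906, edgeR). Among all tested genes 0.0355% passed for the difference of effects and 0% between controls, and no tubulin member passed in either by edgeR or DESeq2, or had an unadjusted p under 0.05.

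**Figure D2:**
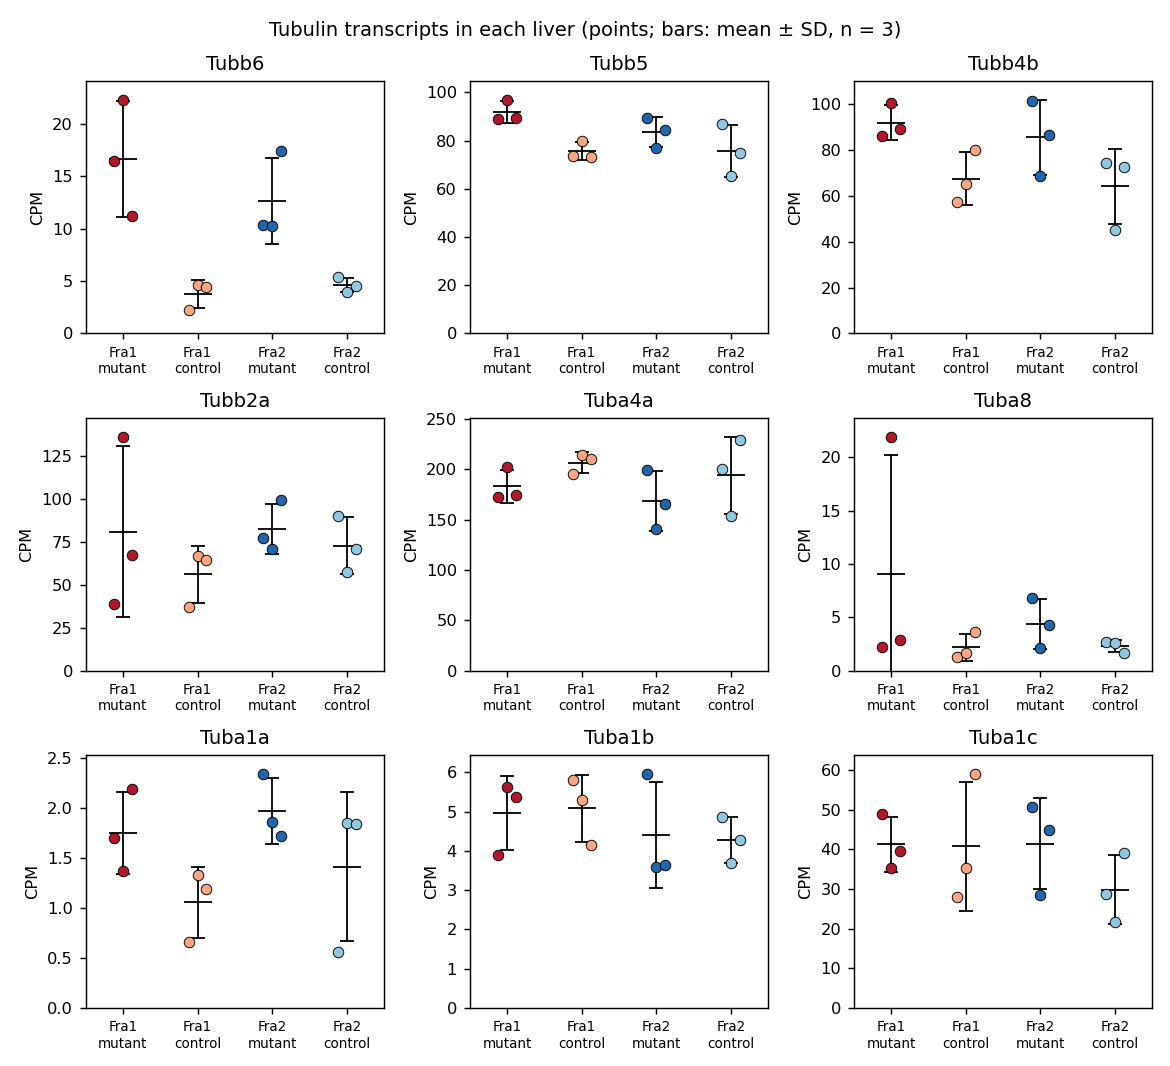
CPM (y axis, from 0) of the 9 tested tubulin genes, 1 panel each, in Fra1 mutants, Fra1 controls, Fra2 mutants and Fra2 controls (x axis); points are livers, the horizontal bar is the mean and the whiskers are ± SD (n = 3). Tubb6 mutants sit at 11.2 to 22.3 (Fra1) and 10.3 to 17.4 (Fra2), above controls at 2.22 to 4.62 and 3.96 to 5.36, and Fra1 mutant 2 stands apart for Tuba8 at 21.9.

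Counted over the family, 1 of 9 tested members passed in Fra1 mutants, higher; across all genes 2.9% were called higher. In Fra1 mutants 4 of 9 had all mutants above all controls, against 11.7% of all genes, and 4 of 9 had an unadjusted p under 0.05, against 16.3%. The latter were Tubb6, Tuba8, Tubb5 and Tubb4b, and Tuba8 rested on Fra1 mutant 2, with a log2 fold change of 0.23 without it. The members were chosen with earlier results of these data known, so these shares are a description. The median log2 fold change of the 9 was 0.45, against 0.01 over all tested genes. In Fra2 mutants 0 of 9 passed (0.845% of all genes were called higher), 1 of 9 had all mutants above all controls (9.31% of all genes), and 1 had an unadjusted p under 0.05 (11.5%). Their median was 0.42, against -0.01 over all genes. Without Fra2 controls 1 and 2, the lone Fra2 control being assumed to vary like the other groups, log2 fold changes in Fra2 mutants were 0.23 for Tubb4b, 0.16 for Tubb5, 0.22 for Tubb2a, 0.10 for Tuba1a, 0.04 for Tuba1b, 0.08 for Tuba1c, -0.44 for Tuba4a and 1.38 for Tuba8, and 0 of 9 passed. Tubb6 was the 1 member above its controls in both strains, as 3.5% of all genes were.

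The beta members Tubb4b and Tubb5 are the isotypes most tissues use constitutively. Tubb4b (chromosome 2, 25222160 to 25224702, minus strand) had 86.2, 100.5 and 89.3 CPM in Fra1 mutants, against 57.2, 65.2 and 79.9 CPM in Fra1 controls. In Fra2 mutants it had 101.4, 68.7 and 86.6 CPM, against 74.5, 45.2 and 72.7 CPM in Fra2 controls. The Fra1 groups did not overlap and the Fra2 groups did. The log2 fold changes were 0.45 ± 0.20 in Fra1 mutants and 0.42 ± 0.20 in Fra2 mutants (SE, n = 3 each; adjusted p = 0.303 and 0.478, edgeR quasi-likelihood test).

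Tubb5 (chromosome 17, 35833921 to 35838306, minus strand) had 88.9, 97.0 and 89.2 CPM in Fra1 mutants, against 73.6, 79.9 and 73.1 CPM in Fra1 controls. Again no Fra1 mutant was as low as a control. The log2 fold change was 0.28 ± 0.11 (SE, n = 3 each; adjusted p = 0.241, edgeR). In Fra2 mutants it had 89.5, 77.1 and 84.2 CPM, against 87.1, 65.5 and 74.8 CPM in Fra2 controls, ranges that overlapped. Over the 12 livers Tubb5 ran from 65.5 to 97.0 CPM.

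Tubb2a and Tubb2b are neighbouring genes on chromosome 13 (34074274 to 34078007 and 34126748 to 34130466, minus strand), best known from neurons, where Tubb2b is needed for migration in the developing brain. Tubb2a had 39.0, 135.9 and 67.3 CPM in Fra1 mutants, against 36.9, 66.9 and 64.3 CPM in Fra1 controls. Fra1 mutant 2 was the highest of the 12 livers and the other Fra1 mutants were near their controls. The log2 fold change was 0.53 ± 0.39 with all libraries and -0.08 without Fra1 mutant 2. In Fra2 mutants Tubb2a had 77.1, 70.8 and 98.9 CPM, against 90.0, 57.5 and 70.5 CPM in Fra2 controls, and the groups overlapped. Tubb2b had 12, 2 and 1 counts in Fra1 mutants, against 3, 3 and 0 in Fra1 controls, and 3, 8 and 3 counts in Fra2 mutants, against 4, 3 and 0 in Fra2 controls. Most of these counts are at or under 3, which corresponds to 0.147 to 0.196 CPM, so no difference was detectable at this depth.

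Tuba4a (chromosome 1, 75214228 to 75219865, minus strand) encodes an alpha-tubulin that lacks an encoded tyrosine at its end. It had 173.0, 202.5 and 174.6 CPM in Fra1 mutants, against 195.1, 214.6 and 210.3 CPM in Fra1 controls. In Fra2 mutants it had 199.5, 140.7 and 165.3 CPM, against 200.4, 153.4 and 228.9 CPM in Fra2 controls. It was the 1 tested member with a negative log2 fold change in both strains, -0.17 ± 0.16 in Fra1 mutants and -0.21 ± 0.16 in Fra2 mutants (SE, n = 3 each). Neither passed the test, and the groups overlapped.

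Tuba8 (chromosome 6, 121210696 to 121226854, plus strand) is a divergent alpha gene best known from testis and muscle. It had 2.24, 21.9 and 2.89 CPM in Fra1 mutants, against 1.24, 1.62 and 3.66 CPM in Fra1 controls. The value of 21.9 came from 416 counts in Fra1 mutant 2, and the other Fra1 mutants lay within the range of the controls. The log2 fold change of 2.04 ± 0.82 (SE, n = 3 each; adjusted p = 0.239, edgeR) came to 0.23 without that library. In Fra2 mutants Tuba8 had 6.78, 2.13 and 4.26 CPM, against 2.65, 2.57 and 1.67 CPM in Fra2 controls, overlapping ranges with a log2 fold change of 0.93 ± 0.81. Fra1 mutant 2 was also the highest of the 12 livers for Tubb6, Tubb2a and Tubb5.

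The 3 Tuba1 genes lie together on chromosome 15, with Tuba1b at 98931425 to 98934565 and Tuba1a at 98949837 to 98953703 on the minus strand and Tuba1c at 99029891 to 99038110 on the plus strand. Tuba1a is the alpha gene that developing neurons use most, and Tuba1b and Tuba1c are used widely. Tuba1c had 48.9, 35.3 and 39.6 CPM in Fra1 mutants, against 27.9, 35.4 and 59.0 CPM in Fra1 controls, and 50.8, 28.6 and 44.9 CPM in Fra2 mutants, against 28.8, 21.7 and 39.0 CPM in Fra2 controls. Its groups overlapped in both strains. Tuba1b ranged from 3.88 to 5.64 CPM in Fra1 mutants, against 4.14 to 5.81 CPM in Fra1 controls, and from 3.60 to 5.96 CPM in Fra2 mutants, against 3.68 to 4.86 CPM in Fra2 controls. Tuba1a had 31, 26 and 43 counts in Fra1 mutants, against 10, 27 and 22 in Fra1 controls. In CPM its Fra1 groups did not overlap by a small margin, 1.37 in the lowest mutant against 1.33 in the highest control, and its log2 fold change was 0.71 ± 0.43 (adjusted p = 0.450, edgeR). With the 3 genes summed, the split of reads among them no longer matters. Reads that were dropped or given to other copies would still be missing. The log2 fold change of the sum was 0.03 ± 0.26 in Fra1 mutants and 0.43 ± 0.27 in Fra2 mutants. Neither sum passed the test.

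**Figure D3:**
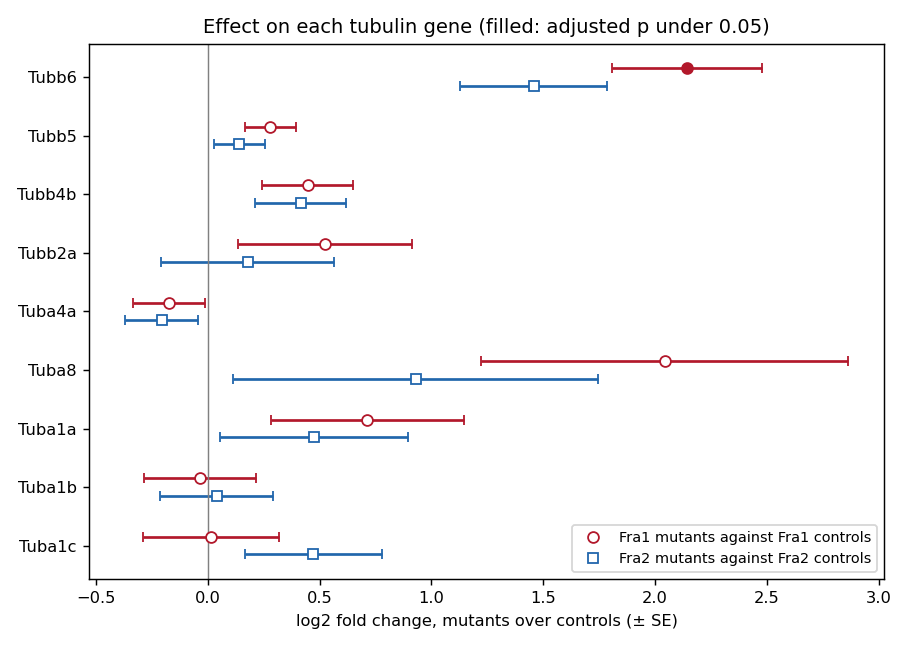
Log2 fold change of mutants over controls (x axis; point ± SE) for the 9 tested tubulin genes (y axis), with Fra1 as circles and Fra2 as squares; a filled symbol has an adjusted p under 0.05. Tubb6 in Fra1, at 2.14, is the filled symbol, and Tuba8 in Fra1, at 2.04, has the widest error.

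Levels of different genes can be compared only per length. Full exon lengths were used, so the order is uncertain for members with shared stretches, the Tuba1 genes, Tubb2a, Tubb2b and Tubb4b. It is also uncertain for Tuba4a, which Stk16 overlaps. Divided by exon length, the mean over the 12 livers was 50.8 CPM per kb for Tuba4a, 45.3 for Tubb2a, 37.0 for Tubb4b, 24.5 for Tubb5, 16.8 for Tuba1c, 3.87 for Tubb6, 2.50 for Tuba1b, 1.97 for Tuba8, 0.857 for Tuba1a and 0.0840 for Tubb2b. By group means, Tubb2a was the highest in mutants, at 50.1 in Fra1 and 51.1 in Fra2, against 49.5 and 45.5 for Tuba4a, and Tuba4a was the highest in controls, at 55.8 in Fra1 and 52.5 in Fra2, against 34.8 and 45.1 for Tubb2a. The ranges of Tubb2a and Tuba4a overlapped in every group but the Fra1 controls. Over all livers the ranges of neighbours in the order overlapped, except between Tuba1c and Tubb6 and between Tuba1a and Tubb2b. Tubb6 was at 6.85 ± 2.28 CPM per kb in Fra1 mutants, against 1.54 ± 0.545 in Fra1 controls, and at 5.20 ± 1.69 in Fra2 mutants, against 1.90 ± 0.287 in Fra2 controls (SD, n = 3 each). It was the 6th of the 10 members in both mutant groups and the 7th, below Tuba1b, in both control groups. In Fra2 mutants its range did not meet that of Tuba1b below it, and in Fra2 controls the ranges overlapped.

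As a share of the summed beta-tubulin level per kb, Tubb6 made up 5.39% ± 1.43 in Fra1 mutants and 1.64% ± 0.357 in Fra1 controls, and 4.21% ± 0.994 in Fra2 mutants and 1.90% ± 0.143 in Fra2 controls (SD, n = 3 each). The mutant ranges, 3.97% to 6.83% in Fra1 and 3.32% to 5.29% in Fra2, lay above those of the controls, 1.24% to 1.92% and 1.81% to 2.07%. Tubb2a, Tubb4b and Tubb5 together made up nearly all of the rest. Among the alpha genes, Tuba4a made up 66.3% ± 3.06 in Fra2 mutants and 75.4% ± 0.948 in Fra2 controls, and Tuba1c 26.0% ± 2.77 in Fra2 mutants and 18.5% ± 1.77 in Fra2 controls, and neither pair of ranges overlapped. In Fra1 livers these shares overlapped. Shares, and the sums they are taken from, carry the same uncertainty from shared stretches and the Stk16 overlap as the levels. Shares are given as a description and were not tested.

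The beta sum was 129 ± 37.4 CPM per kb in Fra1 mutants, against 91.4 ± 15.6 in Fra1 controls, and 123 ± 16.1 in Fra2 mutants, against 101 ± 20.8 in Fra2 controls (SD, n = 3 each). The alpha sum was 75.2 ± 7.37 in Fra1 mutants, against 77.9 ± 9.10 in Fra1 controls, and 69.0 ± 14.6 in Fra2 mutants, against 69.6 ± 14 in Fra2 controls. The ranges of the groups overlapped for both sums in both strains.

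**Figure D4:**
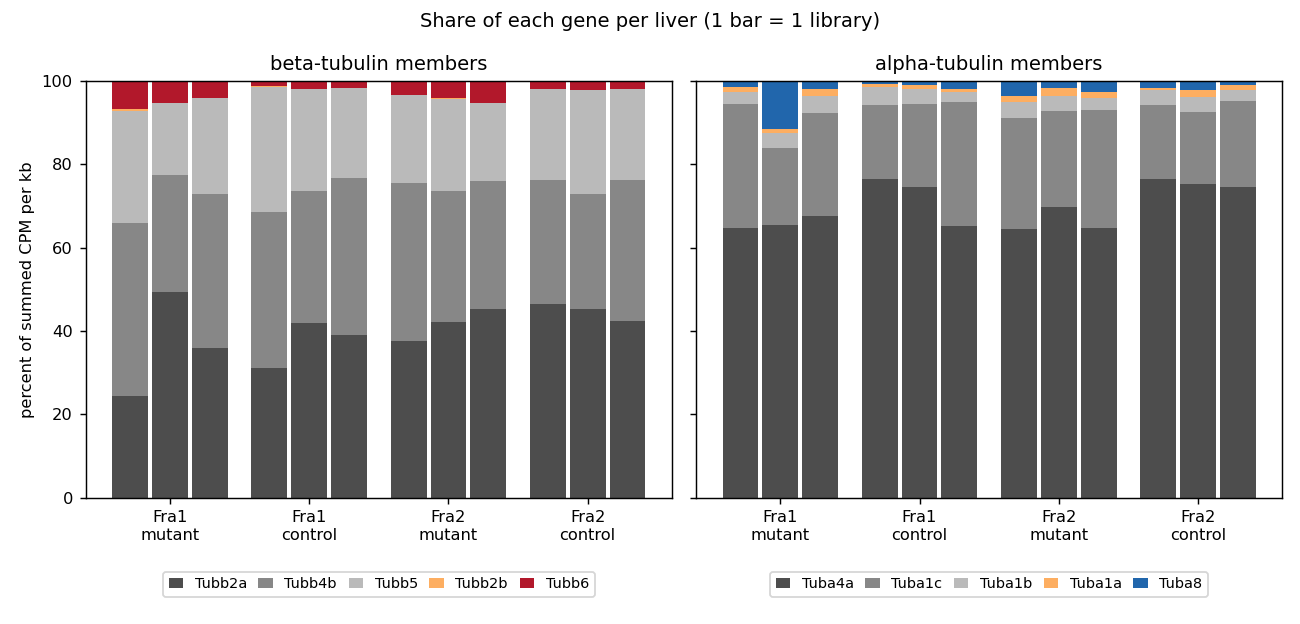
Percent of the summed CPM per kb of the beta-tubulin members (left) and the alpha-tubulin members (right) that each gene makes up (y axis), with 1 stacked bar per library in Fra1 mutants, Fra1 controls, Fra2 mutants and Fra2 controls (x axis). Tubb6, at the top of the left bars, takes 3.32% to 6.83% in mutants and 1.24% to 2.07% in controls, and Tuba8 takes 11.6% of the alpha sum in Fra1 mutant 2.

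Promoter windows were read for 8 members from the RefSeq table on GRCm38.p6, from 250 bases before to 50 after the gene start, and are shown for Tubb4b, which held the most CCAAT boxes, and Tubb2a, which held the palindrome described here. Entries for Tubb6 and Tubb2b were not used here, so the matches say nothing about these genes. The AP-1 letters TGACTCA or their reverse complement TGAGTCA occurred in 0 of 8 windows, against 5.2% of 32851 windows of all genes. At that share, 8 windows are too few to show a lack of these letters. The palindrome TGACGTCA, known as the cyclic AMP response element, occurred in Tubb2a and in 1.79% of all windows. The CCAAT letters or their reverse complement ATTGG are a box common in promoters of housekeeping and cell cycle genes. They occurred in Tubb4b, Tubb5, Tuba1a and Tuba1c and in 37.4% of all windows. In Tubb4b there were 5 of them. Capitals mark the CCAAT boxes of Tubb4b (chr2:25224653-25224952, minus strand) and the TGACGTCA of Tubb2a (chr13:34077959-34078258, minus strand).
Tubb4b: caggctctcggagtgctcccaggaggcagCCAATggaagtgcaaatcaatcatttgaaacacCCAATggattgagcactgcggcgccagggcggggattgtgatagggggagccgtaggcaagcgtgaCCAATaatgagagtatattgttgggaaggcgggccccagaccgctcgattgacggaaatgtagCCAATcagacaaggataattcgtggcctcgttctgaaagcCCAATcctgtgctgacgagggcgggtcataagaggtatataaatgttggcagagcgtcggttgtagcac
Tubb2a: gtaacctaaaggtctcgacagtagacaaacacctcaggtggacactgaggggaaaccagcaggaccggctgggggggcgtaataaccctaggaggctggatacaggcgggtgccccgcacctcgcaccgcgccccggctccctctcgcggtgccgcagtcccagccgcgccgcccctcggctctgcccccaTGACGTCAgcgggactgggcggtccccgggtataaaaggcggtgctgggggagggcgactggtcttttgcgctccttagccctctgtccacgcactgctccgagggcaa
A match, or its absence, is a description of these letters and says nothing about binding.

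Other genes of the microtubule system were counted in the same fits. Of 10 further tubulin genes, Tuba3a, Tuba3b and Tubal3 had 0 counts in every library, which allows up to 0.147 to 0.196 CPM per library, and Tubb1, Tubb3 and Tubg2 did not pass the filter. Tubb4a, Tubg1, Tubd1 and Tube1 were tested and did not pass by edgeR or DESeq2 in any comparison, and 0 of the 4 had an unadjusted p under 0.05. Tubg1, the gamma-tubulin that seeds microtubules, was at 29.7 ± 3.78 CPM in Fra1 mutants, against 32.2 ± 2.72 CPM in Fra1 controls, and at 30.1 ± 1.71 CPM in Fra2 mutants, against 28.4 ± 1.25 CPM in Fra2 controls (SD, n = 3 each). Of the 21 tested tubulin-folding genes, which include chaperonin subunits and tubulin cofactors, 0 passed in either strain by edgeR, and 1 in Fra1 and 2 in Fra2 mutants had an unadjusted p under 0.05, against 16.3% and 11.5% of all genes. Their median log2 fold changes were 0.00 in Fra1 and 0.03 in Fra2 mutants, against 0.01 and -0.01 over all genes. Of the 3 genes of tubulin mRNA autoregulation, Ttc5, Scaper and Cnot11, 0 passed, and 0 had an unadjusted p under 0.05. Among tubulin-modifying enzymes 0 of 17 passed, with 0 in Fra1 mutants (16.3% of all genes) and 4 in Fra2 mutants (11.5% of all genes) at an unadjusted p under 0.05. Among microtubule motors 0 of 18 passed, with 3 in Fra1 and 1 in Fra2 mutants at that level, against the same 16.3% and 11.5%. DESeq2 called 0 genes of these lists in either strain, where it called 1021 (Fra1) and 448 (Fra2) of all 14076 genes.

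Of 27 tested genes for microtubule-binding proteins, 2 passed in Fra1 mutants, where 2.9% of all genes were called higher. Both were higher and both encode linkers that track growing microtubule ends. Clip2 had 14.2, 9.85 and 16.7 CPM in Fra1 mutants, against 1.76, 4.13 and 3.77 CPM in Fra1 controls. Its log2 fold change was 2.07 ± 0.32 (adjusted p = 0.00392, edgeR), and it passed whichever library was left out. In Fra2 mutants it had 7.18, 7.64 and 8.46 CPM, against 4.20, 4.08 and 2.38 CPM in Fra2 controls, groups that did not overlap, with a log2 fold change of 1.13 ± 0.32 (adjusted p = 0.149, edgeR). Clip1 had 56.8, 64.9 and 60.8 CPM in Fra1 mutants, against 27.9, 30.9 and 34.3 CPM in Fra1 controls. Its log2 fold change was 0.97 ± 0.21 (adjusted p = 0.0227, edgeR). Without Fra1 control 1, 2 or 3, or without Fra1 mutant 2 or 3, its adjusted p was 0.0512 to 0.109, and Clip2 alone passed. DESeq2 called 3 of the 27 in Fra1 mutants, where it called 1021 of all 14076 genes in either direction. The third was Mid1, named after its value was seen (log2 fold change 1.24, adjusted p = 0.0448, DESeq2). In Fra2 mutants 0 of 27 passed by edgeR, where 0.845% of all genes were called higher, and 6 of 27 had an unadjusted p under 0.05, against 11.5% of all genes. DESeq2 called Clip2 there (adjusted p = 0.0263), where it called 448 of all 14076 genes in either direction.

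The 5 protein-coding genes whose log2 CPM followed Tubb6 most closely over the 12 libraries were Aph1b, Acsl4, Ppp1r18, Itpr3 and Mcm2. Likeness was the root mean square difference of log2 CPM after centring each gene on its own mean, which ran from 0.352 for Aph1b to 0.389 for Mcm2. Aph1b encodes a subunit of gamma-secretase, Acsl4 an acyl-CoA synthetase that prefers arachidonic acid, Itpr3 a calcium channel of the endoplasmic reticulum, and Mcm2 a subunit of the DNA replication helicase. Acsl4, the most abundant in CPM, was at 151 ± 24.5 CPM in Fra1 mutants, against 45.2 ± 6.90 CPM in Fra1 controls, and at 113 ± 14.9 CPM in Fra2 mutants, against 57.4 ± 15.3 CPM in Fra2 controls (SD, n = 3 each). Mcm2 was at 10.7 ± 2.11 CPM in Fra1 mutants, against 2.29 ± 0.0785 CPM in Fra1 controls, and at 11.1 ± 1.34 CPM in Fra2 mutants, against 3.09 ± 0.827 CPM in Fra2 controls. These genes were chosen for this pattern, so no test of it is given. Tubb4b was the nearest of the other members, with a difference of 0.762 and rank 584 of 12781 genes.

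**Figure D5:**
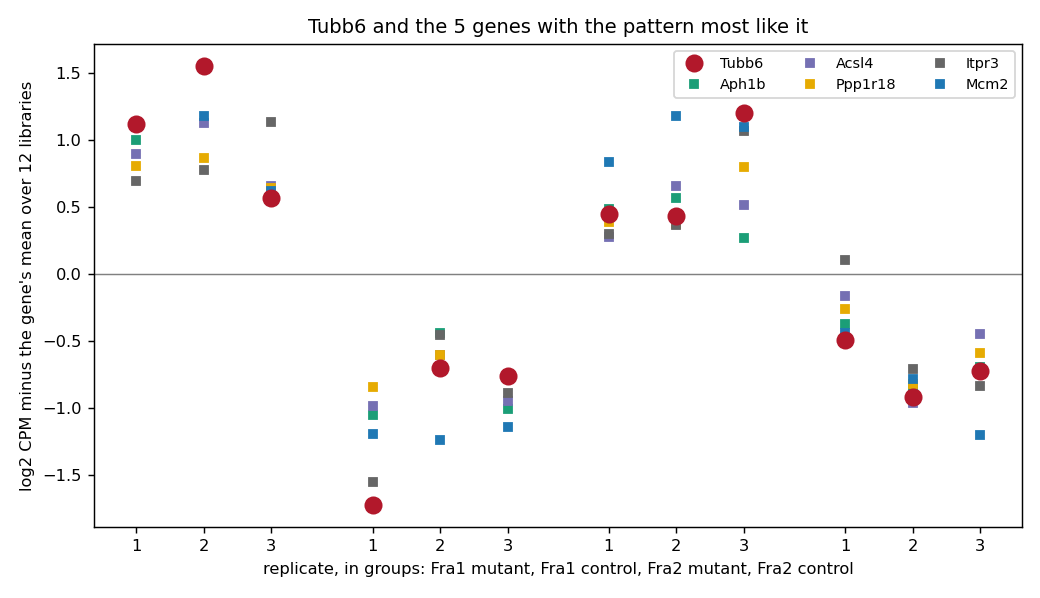
Log2 CPM minus each gene's mean over the 12 libraries (y axis) for Tubb6 (large circles) and the 5 genes most like it (small squares), by replicate within Fra1 mutants, Fra1 controls, Fra2 mutants and Fra2 controls (x axis). Tubb6 lies at 0.43 to 1.55 in mutants and at -1.72 to -0.49 in controls.

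Markers of other cell types were summed beside these results. The 7 stellate cell markers were all present, and 1 of them, Dcn, was called in Fra1 mutants, counted in either direction. Across all genes 2.9% were called higher there. The stellate sum was 356 to 465 CPM in Fra1 mutants, against 221 to 297 CPM in Fra1 controls. In Fra2 mutants the sum was 221 to 363 CPM, against 296 to 395 CPM in Fra2 controls, ranges that overlapped. The 14 dividing-cell markers, all present, summed to 15.7, 25.4 and 7.57 CPM in Fra1 mutants, against 7.25, 8.94 and 8.88 CPM in Fra1 controls. In Fra2 mutants they summed to 15.7 to 17.1 CPM, against 9.55 to 24.8 CPM in Fra2 controls. The 3 erythroid markers summed to 128 to 211 CPM in Fra1 mutants, against 265 to 367 CPM in Fra1 controls. Their Fra2 ranges overlapped, at 161 to 234 CPM in Fra2 mutants and 183 to 344 CPM in Fra2 controls. The 6 cholangiocyte markers summed to 322, 28.9 and 158 CPM in Fra1 mutants, against 75.2 to 105 CPM in Fra1 controls. Their ranges overlapped in both strains, at 74.7 to 202 CPM in Fra2 mutants and 37.1 to 199 CPM in Fra2 controls. The 4 platelet markers, of interest since Tubb1 is the platelet beta-tubulin, summed to 4.67 to 5.71 CPM in Fra2 mutants, against 5.83 to 6.70 CPM in Fra2 controls, and overlapped in Fra1. Sums of the endothelial, Kupffer cell, recruited myeloid and lymphocyte markers overlapped between mutants and controls in both strains, and no marker of any list was at 0 in all libraries. The part of these cells in the tubulin values was not tested.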

How the data were processed

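Poly(A) RNA from 12 livers was made into dUTP-stranded libraries and sequenced, per the labels' protocols. Raw counts per gene, whole numbers that were not normalized, are what the authors deposited. The submitters' processing notes list GRCm38 (mm10) and the tools RSEM, STAR 2.6.1a, DESeq2 1.22.2 and bedtools 2.27.1. The counting tool, its annotation and strand setting, and the handling of reads shared by copies are points not given in the sources used here. Counting floors cover counting error only.

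Groups and replicate numbers came from the titles. Genes passing filterByExpr by group (14076, of which 12782 are protein-coding) were scaled by TMM and fitted with 4 group means over 12 libraries by edgeR 4.0.16 (R 4.3.3; robust quasi-likelihood test, two-sided, Benjamini-Hochberg over all tested genes, threshold 0.05). Standard errors were derived from the test statistic. CPM use TMM-scaled totals of the tested genes. Levels per kb use the union of exons in GENCODE M21, and all 10 member identifiers matched it with their version. The mice were littermates sampled once each. Scripts were tested on simulated data.

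The members and lists were chosen with earlier results of these data known. Named were all members, Fosl1 and Fosl2, all tested further tubulin genes, up to 4 called genes per list and comparison, and the 5 protein-coding genes most like Tubb6 (log2 CPM, prior count 2). Alternatives were DESeq2 1.42.0, limma 3.58.1 with voom, RLE factors, no scaling, at least 1 CPM in 3 libraries, no filter, a fit of only the 2 groups compared, a replicate block, leaving out each library, Fra2 controls 1 and 2 left out, near-identical copies summed, and the longest transcript as length.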

Additional observations from a re-analysis of the deposited data

How the results depend on the processing

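Tubb6 in Fra1 mutants passed under all 10 alternatives other than leaving out single libraries and under all 12 of those, and 1 tubulin gene was called each time. In Fra2 mutants the count of 0 became 1, Tubb6, with DESeq2, and was 0 to 1 with single libraries left out. No member passed for the difference of effects or between controls under any alternative. The replicate numbers were not treated as a pairing. Deviations of same-numbered mutants and controls correlated at -0.121 to 0.0558, and those of differently numbered ones at -0.142 to 0.107. With so few livers these values cannot show whether the numbers mark pairs. With the replicate block Tubb6 was 2.15 in Fra1 (adjusted p = 0.0143, edgeR) and 1.42 in Fra2 (adjusted p = 0.125, edgeR). The member counts stayed at 1 and 0, against 371 and 98 genes called in all in place of 540 and 150. Clip1 missed the threshold under the block (adjusted p = 0.0946). Log2 fold changes near 0 changed sign for Tuba1b in Fra1 without scaling (0.11) and in Fra2 with limma-voom (-0.000431), and for Tuba8 between controls without Fra2 controls 1 and 2 (-0.38). With single libraries left out, the ranges were -0.0768 to 0.84 for Tubb2a, -0.18 to 0.10 for Tuba1b and -0.21 to 0.37 for Tuba1c in Fra1, -0.24 to 0.17 for Tuba1b in Fra2, and for Tuba8 -1.70 to 0.69 for the difference of effects and -0.19 to 0.68 between controls; the cause was not tested. Without scaling the median of all genes moved to 0.15 in Fra1. Divided by the longest transcript in place of all exons, levels per kb were 66.3 for Tuba4a, 48.4 for Tubb4b, which then lay above Tubb2a, and 30.8 for Tubb5. All genes called with DESeq2 were 1021 in Fra1, 448 in Fra2, 69 for the difference and 18 between controls, where edgeR called 540, 150, 5 and 0. Without Fra2 controls 1 and 2 the Fra2 count was 50 and that for the difference 2, with only the libraries compared the Fra2 count was 90, and with no filter the difference had 9 and the controls 3. With single libraries left out these counts were 266 to 577, 52 to 183, 0 to 13 and 0 to 1. Tubb2b, with 42 counts in all libraries together, could not be tested at this depth. Of the microtubule-binding genes, 1 to 2 were called in Fra1 with single libraries left out; all alternatives for Clip1, Clip2 and their list were added after seeing the data.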
